A study of Danio rerio with 27 samples.

Results

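The genes described here are 10 cytokine genes of zebrafish barrier tissue, taken by their symbols: tnfa, tnfb, il1b, il1fma, il12a, il12ba, il12bb, il10, il13 and il4. All 10 were found among the 32520 genes of the table. They were read in 27 RNA libraries, each prepared from 30 sorted cells of adult fish and amplified for 23 PCR cycles by a Smart-seq2 procedure. All fish carried the transgenes Tg(spic:EGFP; mpeg1:DsRedx), and the cells were sorted as positive for EGFP, which reports spic, and negative for DsRedx, which reports mpeg1. The 4 groups were cells of sibling epidermis (7 libraries), mutant epidermis (7), sibling gill (5) and mutant gill (8), where mutant refers to spic, an Ets-family transcription factor gene, and the study describes the cells as progenitors of metaphocytes. The labels name neither the mutant allele nor the full genotype of the siblings. They do not tie a library to a fish either, and the spread behind each p-value may be technical. A reporter of spic was the gate in fish labelled as spic mutants, so the cells compared were matched by reporter and not by type.

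Tumour necrosis factor, interleukin 1, interleukin 12, interleukin 10 and the type 2 interleukins 4 and 13 are secreted proteins through which myeloid and lymphoid cells of skin and gill start, steer and end inflammation. Tumour necrosis factor and interleukin 1 act early on neighbouring cells through NF-kB, interleukin 12 joins a smaller chain (encoded by il12a) to a p40 chain (encoded by il12ba or il12bb in zebrafish) and drives type 1 responses, and interleukin 10 restrains myeloid cells. Metaphocytes are myeloid-like cells of zebrafish skin, gill and gut that arise outside the blood lineage.

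In the libraries as a whole, between 6469 and 10655 genes reached 1 TPM (a level per gene length, scaled to the same sum in each library). The number was lower in mutant epidermis (6469 to 8531, mean 7534) than in sibling epidermis (7688 to 9097, mean 8631). In the gills the means were 9264 in siblings and 8937 in mutants. A fit with this number as a covariate is given in the closing section. The targeted gene spic stood at 561 to 760 TPM in sibling epidermis and 7.37 to 125 TPM in mutant epidermis, and at 140 to 500 TPM in sibling gill and 2.92 to 53.3 TPM in mutant gill, with no overlap in either tissue (two-sided exact permutation test of mean log2(TPM + 1), p = 0.000583 and p = 0.000777, the smallest that each set of regroupings can give). Of the 5 metaphocyte markers, cldnh, which encodes a claudin, was at 155 TPM or more in every library of all 4 groups. The others, spic among them, were lower in every mutant library than in every sibling library. The granulin gene grn2 was at 133 TPM or more in every sibling library and at 63.2 TPM or less in every mutant library. For spi1a these limits were 308 and 48.9 TPM, and for mpeg1.1 they were 12.2 and 3.56 TPM. The neuroendocrine and sensory list (11 markers) summed to 17.1 to 234 TPM in the epidermis of siblings and 571 to 8083 TPM in that of mutants, and to 25.3 to 670 TPM and 2475 to 6454 TPM in the gills; its part in the cytokine results was not tested. Keratinocyte markers summed to 2603 to 5211 TPM in sibling epidermis and 3790 to 15084 TPM in mutant epidermis. In gill the sums overlapped broadly, at 1275 to 4767 TPM in siblings and 1880 to 6852 TPM in mutants.

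Of the 10 cytokine genes, 6 reached 1 TPM in at least 5 libraries and were tested with limma on log2(TPM + 1) across all genes, and 4 (il12a, il12ba, il13 and il4) were not. Transcripts of tnfb, il1fma and il12bb were the abundant ones in siblings. In mutant epidermis 4 members were lower (tnfb, il1fma, il12bb and il1b) and 0 higher, where 8.69% of 13465 genes were called lower, 4.13% higher and 12.8% in all. The count was 2 without sibling epidermis 1, 2 or 5 or mutant epidermis 1, 3, 6 or 7 (il1b and il12bb no longer passed). Without sibling epidermis 7 or mutant epidermis 2, 4 or 5 only il1b was lost, and without sibling epidermis 4 only il12bb. All 4 calls held only without sibling epidermis 3 or 6. In mutant gill 5 members were lower (the same genes and tnfa) and 0 higher, where 3.87% of genes were called lower, 2.34% higher and 6.21% in all; over all genes 836 were called, and 512 without sibling gill 4. Every mutant library was below every sibling library for 2 members in epidermis (tnfb and il1fma), where this held for 3.6% of genes, and for 4 in gill (tnfb, il1fma, il1b and il12bb), where it held for 1.73%. A member that passed the filter only through its sibling libraries was favoured to come out lower in mutants, though not in each tissue. This was so for tnfa and il1b, which reached 1 TPM in 0 mutant libraries. These counts therefore describe the members and give no support of their own. The median log2 difference over all genes was -0.27 in epidermis and -0.03 in gill. Quantile normalization moved that median by 0.28 and 0.09 log2 units, and centring each library on its median gene moved it by 1.18 and 0.85, to 0.91 and 0.83. The balance of directions over all genes differed with the scaling: 32.2% of called genes were higher in mutant epidermis, against 46.9% with quantile normalization and 83.3% with median centring, and 37.7% were higher in mutant gill, against 82.8% with median centring. In libraries of sorted cells, fewer cells of a type and less RNA per cell cannot be told apart.

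**Figure D1:**
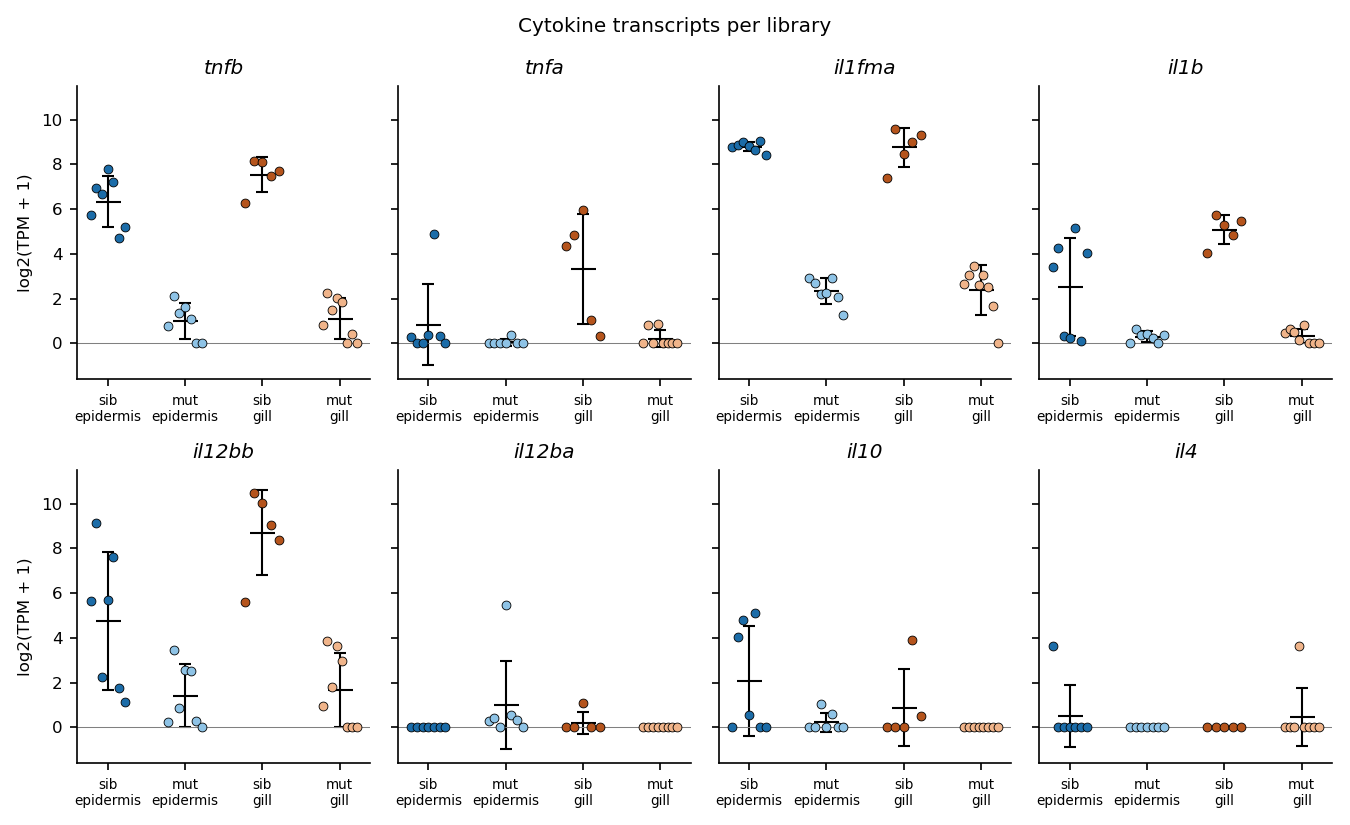
Level of 8 members in log2(TPM + 1) by group, with 1 point per library and bars for the mean and SD. The 12 sibling libraries of tnfb and of il1fma all lie above the 15 mutant libraries, whereas il12bb and il1b spread widely in sibling epidermis and il12ba, il10 and il4 appear in few libraries.

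The tumour necrosis factor genes came first by role. The gene tnfb (ENSDARG00000013598) encodes 1 of the tumour necrosis factor paralogues of zebrafish. In sibling epidermis it stood at 25.01 TPM in the lowest library, 102 TPM at the median and 224 TPM in the highest, with a mean of 101 ± 70.8 TPM (SD, n = 7). In mutant epidermis it ran from 0 to 3.32 TPM with a median of 1.14 TPM, so that 1.24% of the sibling mean was listed. Every mutant library was below every sibling library. The log2 difference was -5.33 ± 0.69 (SE; limma, adjusted p = 7.01e-07).

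In sibling gill tnfb stood at 76.5, 284, 278, 175 and 206 TPM in libraries 1 to 5, a mean of 204 ± 84.9 TPM (SD, n = 5). In mutant gill it ran from 0 to 3.79 TPM with a median of 1.29 TPM, and 0.762% of the sibling mean was left. The groups again did not overlap, and the log2 difference was -6.43 ± 0.73 (SE; limma, adjusted p = 1.86e-07). Only 0.0297% of all tested genes had a lower value in gill.

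The paralogue tnfa (ENSDARG00000009511), the tumour necrosis factor gene most used as a marker of inflammatory macrophages in zebrafish, was sparse. In sibling gill it stood at 19.3, 27.4 and 62.1 TPM in libraries 1 to 3 but at 1.099 and 0.272 TPM in libraries 4 and 5. Mutant gill had 0.750 TPM in library 2, 0.814 TPM in library 4 and 0 in the other 6 libraries. The lowest sibling libraries therefore lay near the mutant values, and the groups overlapped. The log2 difference in gill was -3.10 ± 0.77 (SE; limma, adjusted p = 0.0101), a call that ended with median centring (adjusted p = 0.0854). The gene missed the filter, and had no test, without any 1 of sibling gill 1 to 4 or sibling epidermis 5. In epidermis tnfa was at 28.7 TPM in sibling library 5 and at 0.296 TPM or less in the other 6, and mutant epidermis was at 0 in 6 libraries and at 0.319 TPM in library 5. That difference did not pass (log2 -0.79, 95% interval -2.26 to 0.68; limma, adjusted p = 0.553), and it changed sign with median centring (0.39). In every one of the 12 sibling libraries tnfb was above tnfa, by a median of 10.4-fold in gill.

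The interleukin 1 family followed. The gene il1fma (ENSDARG00000089383), a member of the interleukin 1 family described in fish, was the most even of the cytokine genes in sibling epidermis. Sibling epidermis held 346 TPM in its lowest library, 446 TPM at the median and 532 TPM in its highest (447 ± 63.9 TPM, SD, n = 7). Its coefficient of variation there was 14.3%, and 0.747% of the 6430 genes whose mean reached 10 TPM there had a smaller one; the median over those genes was 73.7%. Mutant epidermis ran from 1.43 to 6.51 TPM with a median of 3.71 TPM, all of it below the siblings. The log2 difference was -6.47 ± 0.58 (SE; limma, adjusted p = 5.75e-10), and 0.974% of the sibling mean was left.

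In sibling gill il1fma stood at 169, 764, 357, 513 and 629 TPM (486 ± 232 TPM, SD, n = 5), a mean close to that of epidermis with a wider spread. Mutant gill ran from 0 in library 8 to 10.1 TPM in library 3, with a median of 5.20 TPM and no overlap with siblings. The log2 difference was -6.37 ± 0.61 (SE; limma, adjusted p = 1.31e-08), and 1.09% of the sibling mean was left.

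The gene il1b (ENSDARG00000098700) encodes interleukin 1 beta, the classical inflammatory cytokine of the family. In sibling gill it stood at 15.6, 52.8, 38.5, 27.9 and 43.9 TPM (35.7 ± 14.4 TPM, SD, n = 5), and in mutant gill at 0.772 TPM or less, with 3 of 8 libraries at 0. The gill groups did not overlap (log2 difference -4.76 ± 0.80, SE; limma, adjusted p = 0.000131). In sibling epidermis the libraries split into 2 sets, with 9.66, 18.4, 34.2 and 15.7 TPM in libraries 1, 2, 5 and 7, but 0.243, 0.185 and 0.0866 TPM in libraries 3, 4 and 6. The latter libraries lay among the mutant epidermis values of 0 to 0.583 TPM. The epidermal log2 difference was -2.20 ± 0.75 (SE; limma, adjusted p = 0.0470), a narrow call. Leaving out 1 library ended it in 11 of 14 fits, all but those without sibling epidermis 3, 4 or 6, and the highest adjusted p was 0.124 without sibling epidermis 5. In each of the 12 sibling libraries il1fma was higher than il1b, by 9.27-fold to 18.4-fold in gill and by 11.7-fold to 6139-fold in epidermis.

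The interleukin 12 genes ranged from the highest level of any member to none. The gene il12bb (ENSDARG00000054542), for a p40 chain, stood at 47.5, 1408, 1044, 532 and 332 TPM in sibling gill (673 ± 549 TPM, SD, n = 5). Library 2 of that group held the highest value of any member in any library. Mutant gill was at 0 in libraries 6, 7 and 8 and between 0.974 and 13.7 TPM in libraries 1 to 5, below all siblings, with 0.656% of the sibling mean left. The log2 difference was -7.05 ± 1.15 (SE; limma, adjusted p = 8.32e-05), and 0.00743% of tested genes had a lower value. In sibling epidermis il12bb reached 559 TPM in library 2 and 194 TPM in library 5, stood at 48.4 and 51.0 TPM in libraries 1 and 4, and at 3.76, 2.44 and 1.22 TPM in libraries 3, 6 and 7; without library 2 the mean of 123 TPM became 50.1 TPM. Its coefficient of variation of 166% was above that of 96.0% of those 6430 genes, the other end of the range from il1fma in the same libraries.

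Mutant epidermis held 0 to 9.99 TPM of il12bb with a median of 0.839 TPM and overlapped the low sibling libraries. The log2 difference was -3.33 ± 1.08 (SE; limma, adjusted p = 0.0351). Leaving out 1 library ended this call in 8 of 14 fits (without sibling epidermis 1, 2, 4 or 5 or mutant epidermis 1, 3, 6 or 7), with the highest adjusted p at 0.113 without sibling epidermis 2, and quantile normalization and median centring ended it as well (adjusted p = 0.0815 and 0.147).

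The other genes of the interleukin 12 chains were listed at 0 in most libraries. The gene il12a (ENSDARG00000038878), for the smaller chain that pairs with p40 to form interleukin 12, was listed at 0 in all 27 libraries. The other p40 gene, il12ba (ENSDARG00000033727), was listed at 0 in every library of sibling epidermis and mutant gill, and in sibling gill it was at 1.14 TPM in library 3 and 0 elsewhere. In mutant epidermis library 4 held 43.7 TPM, and the other libraries of that group 0 to 0.454 TPM. Of the p40 pair, il12bb was therefore the higher gene in 12 of 12 sibling libraries.

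**Figure D2:**
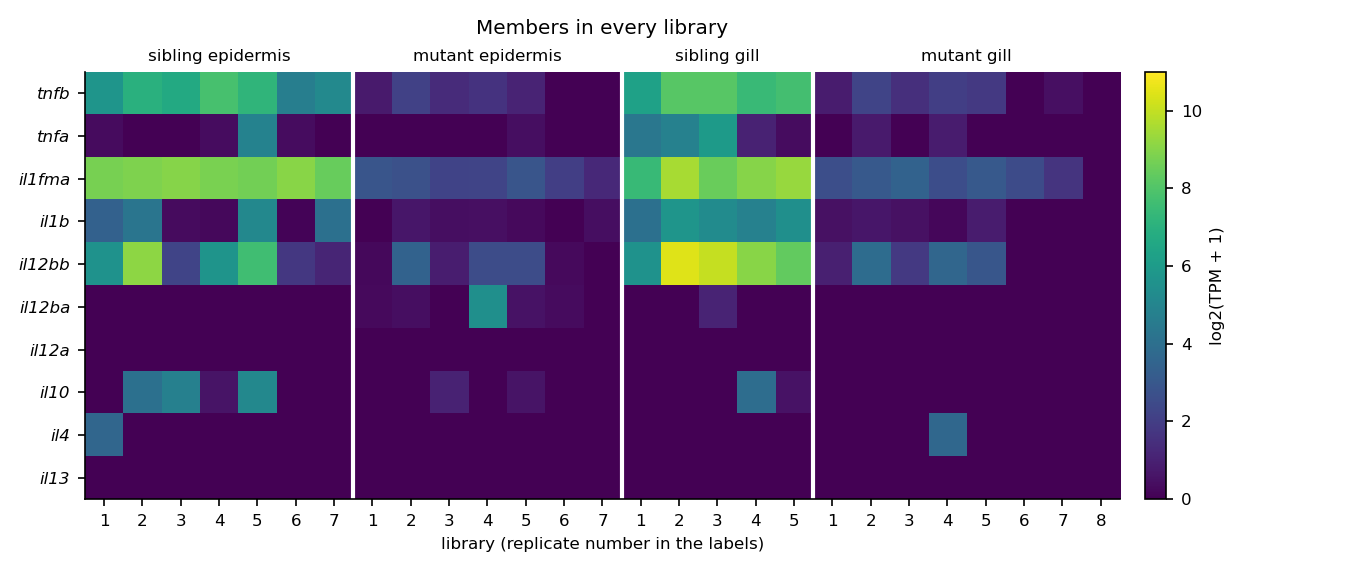
Level of the 10 members in log2(TPM + 1), shown as colour, in each of the 27 libraries by group and replicate number. In siblings il1fma and tnfb are high in every library, il12bb and il1b in some and tnfa and il10 in few, while il12a and il13 are listed at 0 throughout.

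The regulatory gene il10 (ENSDARG00000078147) was listed at 0 in 19 of the 27 libraries. It stood at 15.5, 26.6 and 34.0 TPM in sibling epidermis 2, 3 and 5, at 0.474 TPM in library 4 and at 0 in libraries 1, 6 and 7. In mutant epidermis it was at 1.06 TPM in library 3, at 0.510 TPM in library 5 and at 0 in the other 5. The groups overlapped and the difference did not pass (log2 -1.84, 95% interval -3.32 to -0.36; limma, adjusted p = 0.0965). In gill il10 was at 14.1 TPM in sibling library 4 and 0.435 TPM in sibling library 5, and at 0 in all other gill libraries (log2 -0.89, 95% interval -2.47 to 0.69; limma, adjusted p = 0.582). The type 2 gene il4 (ENSDARG00000087909) was listed at 11.4 TPM in sibling epidermis 1, at 11.6 TPM in mutant gill 4 and at 0 in the other 25 libraries. Its neighbour in function il13 (ENSDARG00000077809) was listed at 0 in all 27. TPM keeps no depth, so a listed 0 sets no upper limit on these transcripts.

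Markers of leukocytes that also make these cytokines were read beside them. In all 12 sibling libraries the macrophage genes mpeg1.2, mfap4, marco, c1qa, c1qb, c1qc, csf1ra and csf1rb (8 of the 10 macrophage markers in the table) were under 1 TPM. The list summed to 101 to 336 TPM in sibling epidermis and 12.2 to 141 TPM in sibling gill, nearly all of it mpeg1.1, and to 0.557 to 5.57 TPM in mutant epidermis and 0 to 107 TPM in mutant gill, where 1 library held 106 TPM of c1qc. The neutrophil gene mpx was listed at 0 in all 27 libraries. The 7 neutrophil markers summed to 0.937 to 78.2 TPM in the epidermis of siblings and 0 to 2.55 TPM in that of mutants, and to 0.176 to 68.7 TPM and 0 to 94.6 TPM in the gills. Of these, nccrp1 had medians of 36.2 and 0.812 TPM in sibling and mutant epidermis and 37.3 and 15.7 TPM in sibling and mutant gill. In sibling epidermis cpa5 and lect2l reached 31.1 and 27.2 TPM, and in sibling gill npsn reached 29.2 TPM, in 1 library each. Of the 13 T and NK cell markers in the table, 9 stayed under 1 TPM in sibling epidermis and 11 in mutant epidermis, as did 10 in gill of siblings and 7 in gill of mutants. Transcripts of zap70, il7r, foxp3a and rorc were listed at 0 in every library. The co-stimulatory receptor gene cd28 was not: it stood at 17.1 to 86.5 TPM in sibling epidermis and 8.80 to 88.9 TPM in sibling gill, with medians of 0.869 TPM in mutant epidermis and 0.760 TPM in mutant gill. Other markers of the list were present in few libraries. In mutant gill cd247l reached 159 TPM, cd8a 33.8 TPM, tcf7 10.4 TPM and lck 6.72 TPM. They were at 1 TPM or more in 2, 1, 1 and 1 of its 8 libraries. In sibling gill cd4-1 reached 21.0 TPM in 1 library. In sibling epidermis lck and cd8b reached 6.71 and 4.07 TPM in 1 library each. The T and NK cell list summed to 19.4 to 313, 4.62 to 176, 186 to 473 and 299 to 1366 TPM over sibling epidermis, mutant epidermis, sibling gill and mutant gill. Most of it in gill was gata3, a transcription factor gene of T cells that epithelial cells express too. The highest sum was that of mutant gill 4, which was also a library with il4, at 11.6 TPM. The 5 B cell markers summed to at most 17.6, 125, 44.1 and 99.8 TPM, again in that order. The part of these cell types in the cytokine levels was not tested.

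**Figure D3:**
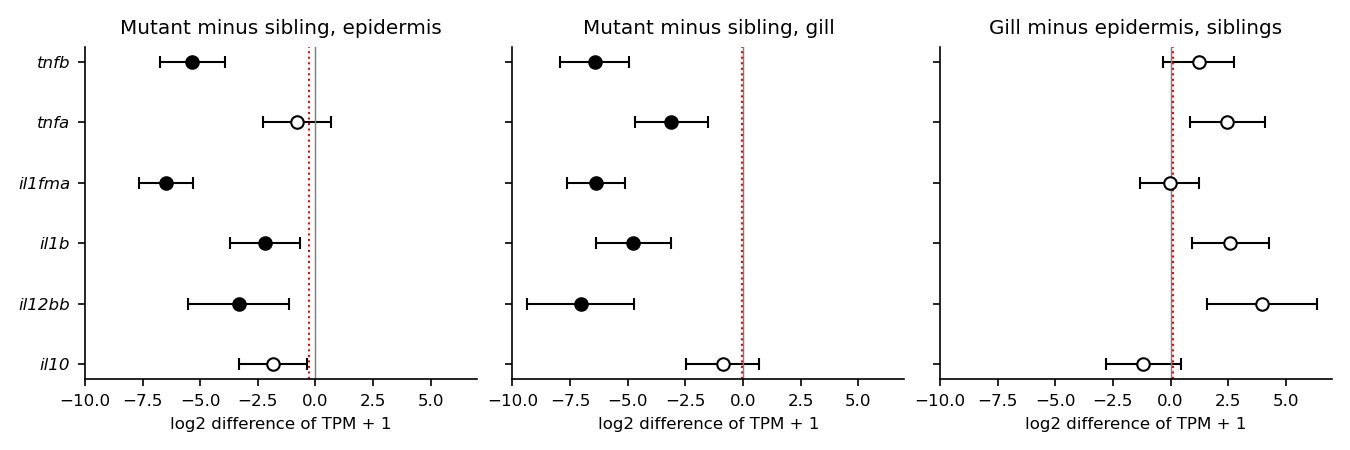
Log2 difference of TPM + 1 with its 95% interval from limma for the 6 tested members, in 3 comparisons; filled points passed an adjusted p of 0.05, and the dotted line is the median of all tested genes. Filled points number 4 in epidermis and 5 in gill, and none is filled between tissues in siblings.

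Within the sibling groups the members differed in how many libraries held them. In sibling epidermis each library had between 2 and 6 members at 10 TPM or more, with a median of 3. Library 5 had 6 of them (tnfb, tnfa, il1fma, il1b, il12bb and il10) and library 2 had 5, while library 6 had 2 (il1fma and tnfb). In sibling gill the number ran from 4 to 5. Summed over the members, sibling epidermis held 398 to 1179 TPM and sibling gill 328 to 2536 TPM, against 1.75 to 54.7 TPM in mutant epidermis and 0 to 32.1 TPM in mutant gill.

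Gill and epidermis of siblings were compared next. The means were higher in gill for il12bb (673 against 123 TPM), il1b (35.7 against 11.2 TPM), tnfa (22.03 against 4.21 TPM) and tnfb (204 against 101 TPM), and about level for il1fma (486 against 447 TPM). No member passed the test, where 0.958% of genes were called, and 3 had an unadjusted p under 0.05. For il12bb the log2 difference was 3.96 (95% interval 1.56 to 6.35; limma, adjusted p = 0.125), for il1b 2.58 (0.91 to 4.25; adjusted p = 0.178) and for tnfa 2.47 (0.86 to 4.08; adjusted p = 0.185). The il12bb difference passed without sibling epidermis 2 (limma, adjusted p = 0.0358) and with a pseudocount of 10 (0.0439), and the tnfa difference without sibling gill 5 (0.0466). That library was the lowest of sibling gill for tnfa, at 0.272 TPM. Of the 5 libraries with 1 TPM or more of tnfa, 4 were sibling gill. The filter thus favoured a higher level there, and the tnfa difference gives no support of its own. For il1fma the interval ran from -1.32 to 1.24. For tnfb the difference was 1.21 (-0.32 to 2.74; adjusted p = 0.750), and for il10, lower in gill, it was -1.19 (-2.81 to 0.44; adjusted p = 0.803).

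Whether the mutant difference itself differed between tissues was tested by the interaction. The interaction, gill minus epidermis, was -3.72 log2 units for il12bb, -2.56 for il1b and -2.32 for tnfa, with unadjusted p under 0.05 for these 3 members, but none passed (limma, adjusted p = 0.414, 0.418 and 0.460), in a comparison that called 0.0594% of genes. It was -1.096 for tnfb (95% interval -3.14 to 0.95), 0.09 for il1fma (-1.62 to 1.80) and 0.95 for il10 (-1.22 to 3.12). Between mutant gill and mutant epidermis 0 of the 6 tested members were called (limma, 0 at an unadjusted p under 0.05), where 4.23% of genes were. These members were low in both mutant groups, with group means of at most 5.28 TPM, so a difference could hardly show. The share over all genes is therefore no yardstick here. For the same reason the interaction of a member largely repeats its tissue difference in siblings, with the sign turned. In that comparison il11a, for an interleukin 6 type ligand, and the chemokine gene cxcl8b.1 were higher in mutant gill (log2 difference 4.53 and 4.20, limma, adjusted p = 0.00645 and 0.0208). So were sigirr, for an inhibitory receptor of the interleukin 1 family (4.25, adjusted p = 0.00481), and tollip, for an adaptor of that path (3.38, adjusted p = 0.0272). The gene traf2a, for an adaptor of tumour necrosis factor receptors, was lower (-1.84, limma, adjusted p = 0.0341). Mutant gill held 1.91 to 525 TPM of il11a and mutant epidermis 0 to 2.45 TPM. Levels of cxcl8b.1 in mutant gill spread from 0.605 to 1069 TPM around a median of 7.01 TPM, and mutant epidermis held 0 to 3.08 TPM. The gene traf2a passed the filter largely through mutant epidermis, so its call gives no support of its own. These comparisons share libraries with those above and are not independent of them.

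The low values of tnfb, il12bb and il1fma in mutants are given here by the replicate number of the labels. The levels of tnfb were 0.712, 3.32, 1.58, 2.06, 1.14, 0 and 0 TPM in mutant epidermis 1 to 7. In mutant gill 1 to 8 they were 0.765, 3.79, 1.80, 3.14, 2.57, 0, 0.357 and 0 TPM. Library 2 was the highest of each mutant group, and libraries 6 and 7 were at or near 0. In mutant gill il12bb was at 0.974, 13.7, 2.55, 11.3 and 6.80 TPM in libraries 1 to 5 and at 0 in libraries 6 to 8, and sibling gill has only the numbers 1 to 5. In mutant epidermis it was at 0.189, 9.99, 0.839, 4.86, 4.82, 0.220 and 0 TPM in libraries 1 to 7. For il12bb mutant library 2 was highest in both tissues, as were sibling libraries 2, and mutant libraries 6 and 7 were at or near 0. Sibling epidermis 6 and 7 held 2.44 and 1.22 TPM of it. Levels of il1fma did not peak at number 2 in mutants. Mutant epidermis was highest in library 5 (6.51 TPM, with 5.60 TPM in library 2) and mutant gill in library 3 (10.1 TPM, with 7.43 TPM in library 2). At numbers 6 and 7 il1fma was at 3.15 and 1.43 TPM in mutant epidermis and 4.69 and 2.17 TPM in mutant gill.

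Set against the summed sibling libraries of the same number, mutant libraries 1 to 5 held 0.322% to 0.816% of tnfb in epidermis and 0.475% to 0.929% in gill. For il12bb the shares spread more widely, from 0.244% to 1.94% in gill and from 0.0801% to 0.917% in epidermis over the same numbers, and mutant epidermis 6 was at 9.02% of a sibling library at 2.44 TPM. For il1fma the share was 0.387% to 1.08% in the 7 libraries of mutant epidermis and 0.536% to 1.17% in mutant gill 1 to 7. Mutant gill 8, the library whose number no sibling library has, was listed at 0 for all 10 members; it held 6755 genes at 1 TPM or more, the fewest of the gill libraries. Among sparse members, tnfa was at 0.319 TPM in mutant epidermis 5 and at 28.7 TPM in sibling epidermis 5, and il10 was above 0 in mutant epidermis 3 and 5, numbers at which sibling epidermis held 26.6 and 34.0 TPM. At number 2 tnfa was at 0.750 TPM in mutant gill and at 27.4 TPM in sibling gill. Other sparse values did not pair in this way: tnfa was at 0.814 TPM in mutant gill 4 and at 1.099 TPM in sibling gill 4, and both il12ba at 43.7 TPM in mutant epidermis 4 and il4 at 11.6 TPM in mutant gill 4 stood against sibling libraries at 0. Sibling gill 1 and 3 held 19.3 and 62.1 TPM of tnfa, with both mutant libraries of each number at 0. The same held for il10 at 15.5 TPM in sibling epidermis 2 and 14.1 TPM in sibling gill 4, and for il4 at 11.4 TPM in sibling epidermis 1. The labels do not say what libraries of one number share. Whether reads passed between libraries was not tested, so the shares left in mutants are given as listed levels. Whether they are expression of mutant cells was not tested either. An alternative added once the values were known put every value below 1% of that gene's maximum at 0. With it 4 members were called lower in epidermis and 5 in gill, and the log2 difference of il1fma became -8.80 and -8.32. The maxima of the called members lay in sibling gill, and for tnfb and il1fma the rule could lower only mutant values. It could hardly end their falls, so these calls are no check on them.

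**Figure D4:**
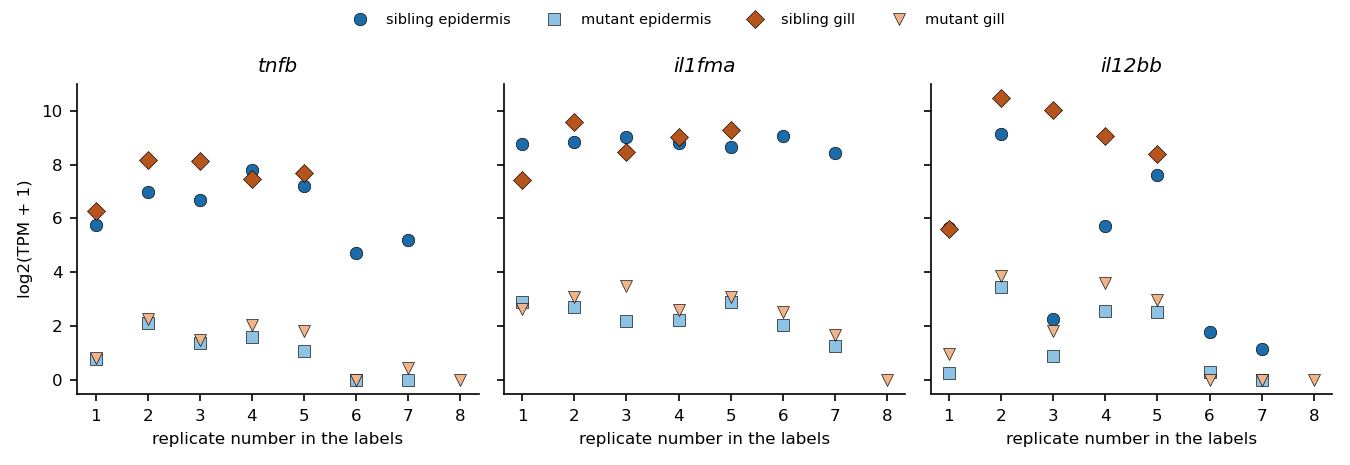
Level of tnfb, il1fma and il12bb in log2(TPM + 1) against the replicate number of the labels, with 1 point per library and 1 symbol per group; the numbers name libraries and have no order. The mutant points of tnfb and il12bb are highest at number 2 in both tissues and at or near 0 at numbers 6 to 8, and il1fma is at 0 only in mutant gill 8.

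Of 25 receptor genes listed, 14 were in the table and 9 were tested; 2 fell and 1 rose in mutant epidermis, and 1 fell and 1 rose in mutant gill, where 12.8% and 6.21% of all genes were called. With so few calls the list is described by its genes. Its median log2 difference was -1.02 in epidermis and -0.37 in gill. With median centring it was 0.17 and 0.48, where the median over all genes was 0.91 and 0.83. The gene il10ra, for the chain of the interleukin 10 receptor that binds the cytokine, fell in both tissues. It passed the filter largely through siblings, which favoured a fall. It stood at 26.8 to 122 TPM in sibling epidermis and at 0.0927 to 0.967 TPM in mutant epidermis (log2 difference -5.40; limma, adjusted p = 2.81e-07), and at 7.72 to 48.2 TPM in sibling gill and 0 to 1.59 TPM in mutant gill (-3.73; adjusted p = 0.000637), with no overlap in either. The gene il13ra1, for a chain shared by receptors of interleukins 4 and 13, rose from 297 ± 189 to 904 ± 189 TPM in epidermis (SD, n = 7 each; adjusted p = 0.00286) and from 59.7 ± 45.9 to 573 ± 270 TPM in gill (SD, n = 5 and 8; adjusted p = 2.10e-06). The other call was tnfrsf1b, a tumour necrosis factor receptor gene, which fell in epidermis from low levels (0.0737 to 13.6 TPM in siblings, 0 in all 7 mutant libraries; limma, adjusted p = 0.0412). It too passed the filter only through siblings, which favoured a fall, so this call gives no support of its own. In siblings il13ra1 was lower in gill than in epidermis (log2 -2.37; limma, adjusted p = 0.00382). The transcripts of the ligands, il4 and il13, were at 0 in 25 and 27 of the 27 libraries.

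In the main fit other ligands of the same families, 42 listed and 13 tested, had 1 member lower and 0 higher in each tissue, where 8.69% of all genes were called lower in epidermis and 3.87% in gill. It was il16, for a chemoattractant of CD4 cells in mammals, at 2.41 to 35.4 TPM in sibling gill and 0 to 0.351 TPM in mutant gill (limma, adjusted p = 0.00446) and at a log2 difference of -2.18 in epidermis (adjusted p = 0.0116). No mutant library reached 1 TPM of it, so it passed the filter through siblings alone. The median log2 difference of that list was -0.13 in epidermis and 1.14 in gill. With median centring it was 1.05 and 1.99, where the median over all genes was 0.91 and 0.83. Of 10 tested genes for processing and the inflammasome (median log2 difference -0.02 and 0.24), 1 fell in epidermis and 0 passed in gill. It was gsdmea, a gasdermin gene whose product forms pores in the cell membrane. Its transcripts were at 6.80 to 82.5 TPM in sibling epidermis and 0 to 0.459 TPM in mutant epidermis (limma, adjusted p = 0.000163). The gene passed the filter largely through siblings, which favoured a fall. The sheddase genes adam17a and adam17b, whose mammalian counterpart releases tumour necrosis factor from the membrane, did not pass in either tissue (adjusted p between 0.167 and 0.940).

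Of 32 tested genes of NF-kB and Myd88 signalling, 4 fell and 1 rose in epidermis (median log2 difference -0.86) and 1 fell in gill (median -0.83), counts near or below the 12.8% and 6.21% of all genes called. The median over all genes was -0.27 and -0.03. With median centring the list medians were 0.32 and 0.02, where the median over all genes was 0.91 and 0.83. The list median was thus below that of all genes with either scaling. In epidermis irak4, a kinase of the interleukin 1 receptor path, fell from a median of 27.3 to 0.228 TPM (limma, adjusted p = 0.00511), traf6, a ubiquitin ligase of that path, from 37.3 ± 11.9 to 6.59 ± 9.03 TPM (0.00945), and nfkbie, an inhibitor of NF-kB, from 319 ± 138 to 103 ± 124 TPM (0.0224). Levels of irak4 were at most 0.828 TPM in mutant epidermis, with a median of 0.398 TPM in mutant gill. It passed the filter largely through siblings, which favoured a fall. The gene that rose was traf2a, from a median of 0 to 1.13 TPM (log2 difference 1.88; limma, adjusted p = 0.0153). It reached at most 0.152 TPM in sibling epidermis and 0.198 TPM in mutant gill. It passed the filter largely through mutant epidermis, so this call gives no support of its own. The NF-kB subunit gene rel fell in both tissues, from 1188 ± 352 to 601 ± 280 TPM in epidermis (0.0223) and from 1328 ± 396 to 539 ± 236 TPM in gill (0.0145). None of 9 tested Jak and Stat genes passed in limma in either tissue (median log2 difference 0.06 and 1.42), among them stat6 (adjusted p = 0.858 and 0.164) and stat3 (0.975 and 0.160).

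Several of these calls rested on the scaling. The falls of il10ra in both tissues and of gsdmea in epidermis, and the rises of il13ra1 and traf2a, passed with quantile normalization and with median centring too. The rise of traf2a, in epidermis only, was favoured by the filter under either scaling. So were the falls of il10ra and gsdmea, genes that passed the filter largely through siblings. With median centring, irak4, traf6, nfkbie and tnfrsf1b no longer passed in epidermis (adjusted p = 0.0544, 0.116, 0.103 and 0.600), il16 passed in neither tissue (0.331 and 0.0878), and rel was at a log2 difference of 0.09 in epidermis and -0.49 in gill without passing; rel also missed the threshold in epidermis with quantile normalization (0.107). Under centring 4 of the 32 tested NF-kB and Myd88 genes rose in epidermis and 0 fell. Of the 9 tested Jak and Stat genes, 3 rose in gill (jak1, stat3 and stat6) and 2 in epidermis (jak1 and stat1b). Among the other ligands, il17a/f3 was called higher in mutant epidermis with quantile normalization and with centring. The ligand gene cxcl8b.1 was called higher in mutant gill with centring (limma, adjusted p = 0.0166). Centring also called il6st and caspb higher in mutant epidermis and relb higher in mutant gill. Over all 13465 tested genes, centring called 2034 higher and 408 lower in epidermis, and 1079 higher and 224 lower in gill. The tissue differences of cxcl8b.1 and tollip in mutants did not pass with centring either (0.0697 and 0.125), nor did that of tollip with quantile normalization (0.103).

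**Figure D5:**
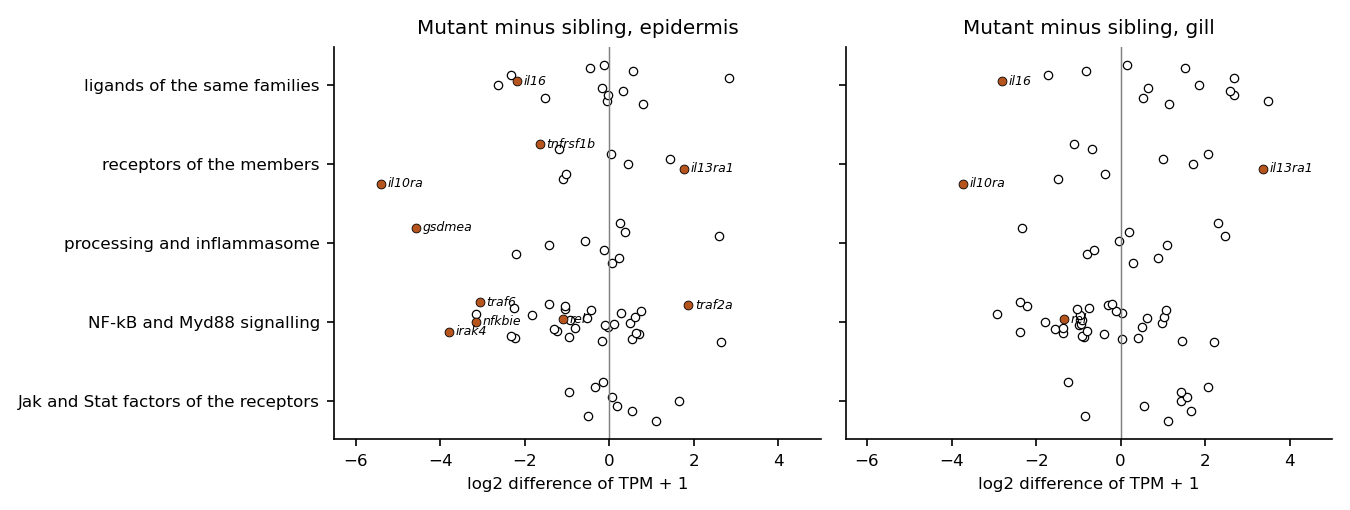
Log2 difference of TPM + 1, mutant minus sibling, for the tested genes of 5 lists around the cytokines in epidermis and gill; filled and named points passed an adjusted p of 0.05 in limma. The receptor gene il10ra lies at -5.40 and -3.73 and il13ra1 at 1.77 and 3.37, and no Jak or Stat gene is filled.

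The genes nearest to the members over the 27 libraries were found by the mean absolute difference between log2(TPM + 1) values after each gene was centred on its mean. A gene level in all libraries would score 3.17 for il1fma, 2.85 for tnfb and il12bb, 1.95 for il1b, 1.23 for tnfa and 1.12 for il10. Any gene high in siblings and near 0 in mutants is brought near by that step alone. Nearness therefore does not show shared regulation. For il1fma the nearest of 9805 genes were elovl5, a fatty acid elongase gene (0.46 log2 units), spi1a, a myeloid Ets factor gene (0.51), and agap2, a GTPase-activating protein gene (0.51), against a median of 3.13 over the genes compared. For tnfb they were gpr132b, a G-protein-coupled receptor gene (0.66), wasa, of the actin regulator WASp (0.68), and tnfaip8l2a (0.69), against a median of 2.88. For il12bb gpr132b was again the nearest (1.13), before card9, an adaptor gene of innate sensing (1.31), and il22ra2, of a soluble interleukin 22 receptor (1.40), against a median of 3.04. The genes nearest to il1b were grnas, aldh1l1 and pknox2 (0.78 to 0.80), those nearest to tnfa were tlr8b, gsto1 and efcab1 (0.69 to 0.73), and those nearest to il10 were arhgef3l, pax6a and ccl38a.4 (0.58 to 0.65). For tnfa and il10 the distances were measured largely over libraries at or near 0.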

How the data were processed

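The authors deposited 1 table of TPM values, with 1 column per library and no pooling; it holds 32520 genes. The submitters' processing notes name STAR and featureCounts with no version, and GRCz11 (danRer11) as build; no source says how strand or multi-mapping reads were handled, so paralogue levels are uncertain to that extent. TPM keeps no depth and rescales each library to a fixed sum, so no counting interval is given. No coordinates are printed, because the reference tables name another assembly; the identifiers of all 10 members are in the table of gene names.

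Genes at 1 TPM or more in at least 5 libraries, 13465 in all, were tested with limma 3.58.1 in R 4.3.3 on log2(TPM + 1), in a single fit of all 27 libraries (a mean for each of the 4 groups, empirical Bayes with a trend). Tests were two-sided, with Benjamini-Hochberg adjustment across every tested gene and calls at 0.05. Every log2 difference is one of log2(TPM + 1), so changes of low genes are understated. The fold values between paralogues are plain ratios of TPM, which a level near 0 inflates. The highest, 6139-fold, divides by il1b at 0.0866 TPM in sibling epidermis 6. The procedure was run on simulated data, drawn as normal log2 values without the filter, with falls set only in genes of high mean level. That setting did not cover the sparse members, so it is no check on their calls. Members and lists were chosen with earlier results of these data known. From each list and contrast up to 4 called genes were named whose mean reached 10 TPM in some group, and 3 genes of like pattern for each member that did so; adam17a, adam17b, stat6, stat3, tnfrsf1b and traf2a were chosen after their values were seen. Figures were drawn with matplotlib 3.10.9.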

Additional observations from a re-analysis of the deposited data

Results flagged for a closer look

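A library stood far from the rest of its group in 7 of the 27 member-by-group sets whose values were not all equal, on the log2(TPM + 1) scale; chance flags about 1 set in 20 of untied values. In 4 of the 7 all other libraries were listed at 0, which meets the criterion at any level of the remaining library, so that rate does not apply to them. In each the library was the highest. For tnfa these were sibling epidermis 5 at 28.7 TPM, where the others reached 0.296 TPM, and mutant epidermis 5 at 0.319 TPM, where the others were at 0. For il12ba they were mutant epidermis 4 at 43.7 TPM, where the others reached 0.454 TPM, and sibling gill 3 at 1.14 TPM, where the others were at 0. For il10 it was sibling gill 4 at 14.1 TPM, where the others reached 0.435 TPM. For il4 they were sibling epidermis 1 at 11.4 TPM and mutant gill 4 at 11.6 TPM, each with the others at 0.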

How the results depend on the processing

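Of 1280 alternative values, 1161 kept their direction, their side of the threshold and, for counts, stayed within 1.5 times. The falls of tnfb and il1fma in both tissues and of il1b and il12bb in gill passed under every alternative in which they were tested; with the stricter filter (5 TPM in 10 libraries) tnfa and il1b had no test and 3 members were lower in gill. In epidermis 2 members were lower with a pseudocount of 10, no filter, quantile normalization, median centring, a covariate for detected genes or epidermis alone. The log2 difference of il1b was no longer called at -0.83, -2.20, -1.88, -1.02 and -1.87 under the first 5 of these, at -2.17 with array weights, and, chosen after seeing the data, at -2.30 without the 3 libraries with the fewest genes and -2.20 without mutant gill 7 and 8. That of il12bb was not called at -1.99, -3.33, -2.78, -2.14, -2.81 and, in epidermis alone, -3.33. With median centring tnfa turned to 0.39 in epidermis and was not called at -2.25 in gill.

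Genes called by the interaction, 8 as reported, were 26 and 13 with pseudocounts of 0.1 and 10, 13 with no filter, 1 with centring, 3 with the covariate, 19 with array weights and 28 without mutant gill 7 and 8. Between mutant tissues 358 (no filter), 338 (centring), 214 (covariate), 360 (array weights) and 174 (mutants alone) were called, against 569. Between sibling tissues 72 (stricter filter), 74 (centring) and 245 (array weights) were, against 129, and 1 member passed with a pseudocount of 10. In epidermis 889 genes were higher with quantile normalization, 2034 were higher and 408 lower with centring, and 747 lower with the covariate; in gill centring called 1303 (1079 higher, 224 lower). The near-0 tissue differences of il1fma changed sign: the interaction to -0.21 (pseudocount 0.1), -0.84 (quantile), -0.24 (centring) and -0.32 (covariate), and siblings to 0.046 (array weights). The cause of these changes was not tested.

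Leaving out 1 library gave 2 to 4 members lower in epidermis, il1b at -2.60 to -1.76 and il12bb at -3.93 to -2.60; 512 to 883 genes called in gill (187 to 361 higher, 325 to 522 lower), 2 to 26 by the interaction, and 74 to 117 between sibling tissues with 0 to 1 members. The il1fma interaction ran from -0.24 to 0.43 and its sibling tissue difference from -0.25 to 0.30.

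With the replicate number as a block 18 genes passed the interaction, and 4 and 5 members stayed lower in epidermis and gill. Same-numbered libraries correlated at 0.0776 at most in their deviations from group means, with 0 of the pairs over 0.1. The main fit did not pair libraries by number. That cut of 0.1 was a choice and cannot show that same-numbered libraries share nothing. Each library correlated best with its own number in 7 of 7 pairs of sibling and mutant epidermis and of both mutant groups, but in 2 of 5 pairs of the gill groups and 3 of 5 of both sibling groups.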
